A study of Homo sapiens with 9 samples.

Results

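The AP-1 and immediate early genes described here are FOS, FOSB, FOSL1, JUN, JUNB, JUND, EGR1, IER2, IER5 and MYC. They were taken as all probes of the deposited non-normalized bead array table whose platform gene symbol is one of these names, which gave 11 probes for 10 genes out of 47310 probes for 20043 named genes. MYC had 2 probes and each other gene had 1. A filter on detection kept 20914 probes, among them 10 probes for 9 of the genes; the JUNB probe did not pass it. The samples were HEK293T, a transformed human embryonic kidney cell line, transfected by Lipofectamine with pRK5 plasmids. The empty vector group received plasmid without an insert, the WT-BPIFB4 group received a plasmid for the wild-type BPIFB4 protein, and the LAV-BPIFB4 group received one for the longevity-associated variant form named in the series. Each group had 3 samples, and every group, the controls included, was transfected, left for 24 h and then kept without serum for 18 h. The transfections were done in triplicate in 1 cell line and nothing states that the triplicates were separate cultures, so every p-value here sets a difference against a spread that may be technical.

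Immediate early genes are those that cells transcribe within minutes of a growth factor, serum or stress signal, before any new protein is made. Many of them are reached through MAP kinases, which activate the serum response factor SRF and its ETS partners at promoters such as those of FOS and EGR1, and through JNK, which phosphorylates JUN. FOS and JUN family proteins pair into the AP-1 transcription factor, EGR1 is a zinc finger transcription factor, MYC drives growth and proliferation genes, and IER2 and IER5 are nuclear proteins of one family, of which IER5 is induced by heat and DNA damage and acts on heat shock factor 1. Serum withdrawal is the classical way to bring such genes to a low level in cultured cells.

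The median signal per array, in bead intensity units, was 93.1 to 119 in empty vector, 101 to 135 in WT-BPIFB4 and 116 to 139 in LAV-BPIFB4, and between 18940 and 20658 probes were detected on each array. The 3 arrays of a group lay side by side on 1 chip, so a group cannot be told apart from its position there. On the first principal component, which held 31.8% of the variance, the empty vector arrays lay at -32.1 to -29.8 and the LAV-BPIFB4 arrays at 19.7 to 25.2, while WT-BPIFB4 replicates 1, 2 and 3 lay apart at -12.3, 9.67 and 29.3. Of 7 HEK293-like markers on the array, 6 were detected (CDH2, KRT8, KRT18, NEFL, NEFM and VIM) and PAX2 was not. None of 6 endothelial markers was detected, against 1 of 5 blood markers (CD14), 2 of 6 fibroblast markers (COL1A1 and COL3A1) and 1 of 5 hepatocyte markers (ALB). The 1 BPIFB4 probe was detected on 0 of 9 arrays, with detection p-values of 0.474 to 0.896, so it gives no check of the transgene. In a second deposited table, of processed values, the empty vector and WT-BPIFB4 columns follow their own arrays (r = 1), on another scale. Its LAV-BPIFB4 columns follow none of the 9 arrays in this way, so all LAV-BPIFB4 results rest on arrays whose match to the label is not settled.

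RefSeq promoters of 300 bases, from 250 before to 50 after the start site in GRCh38.p14, were at hand for 8 of the 10 genes, FOSL1 and MYC being the others. The promoters of IER5 and JUN are shown because these genes carried the calls reported further on, and that of EGR1 because it holds the textbook serum response sites. The IER5 promoter lies at chr1:181088450-181088749 on the plus strand, the JUN promoter at chr1:58783998-58784297 on the minus strand and the EGR1 promoter at chr5:138465229-138465528 on the plus strand. Capitals mark the motif matches described in the next paragraph, and each sequence runs 5′ to 3′ along its gene.
IER5 promoter: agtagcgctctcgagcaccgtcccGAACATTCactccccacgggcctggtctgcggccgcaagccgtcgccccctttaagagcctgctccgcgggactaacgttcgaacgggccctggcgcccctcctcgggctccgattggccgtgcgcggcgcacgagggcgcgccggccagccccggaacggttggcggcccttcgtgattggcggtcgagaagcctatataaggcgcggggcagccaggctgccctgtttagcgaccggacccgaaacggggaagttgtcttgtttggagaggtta
JUN promoter: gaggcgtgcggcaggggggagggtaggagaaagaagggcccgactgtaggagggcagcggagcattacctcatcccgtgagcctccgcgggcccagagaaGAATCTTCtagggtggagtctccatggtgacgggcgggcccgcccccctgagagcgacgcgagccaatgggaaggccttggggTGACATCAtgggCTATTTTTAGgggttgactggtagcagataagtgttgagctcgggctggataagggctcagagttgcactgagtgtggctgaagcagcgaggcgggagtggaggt
EGR1 promoter: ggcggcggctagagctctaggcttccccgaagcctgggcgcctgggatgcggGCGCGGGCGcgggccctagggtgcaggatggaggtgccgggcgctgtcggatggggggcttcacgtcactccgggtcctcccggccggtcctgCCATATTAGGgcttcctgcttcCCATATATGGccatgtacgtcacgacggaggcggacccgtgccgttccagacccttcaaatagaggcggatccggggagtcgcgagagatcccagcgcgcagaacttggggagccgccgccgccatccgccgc

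The IER5 and JUN promoters each held a match to GAANNTTC, a GAA unit and its inverse as in heat shock elements, and the other 6 did not. The match was GAACATTC at positions -226 to -219 in IER5 and GAATCTTC at -150 to -143 in JUN, counted from the start site, and 6.77% of 35116 human promoters of this length held 1. The opposite phase of that element, TTCNNGAA, was in 7.74% of promoters and in none of the 8. EGR1 held 2 CArG boxes, the motif that SRF binds, at -105 to -96 and -83 to -74. Such a box was in 1.29% of promoters and in no other window of the 8. Boxes further from the start site, in FOS or any other member, were not searched for. EGR1 also held the EGR site GCGNGGGCG, found in 9.43% of promoters. The JUN promoter held TGACATCA, the variant AP-1 site known from JUN autoregulation, at -67 to -60 and a MEF2 site at -55 to -46, which 2.61% and 0.572% of promoters held; these 2 motifs were added to the search after the JUN promoter had been read. JUND held the cAMP response element TGACGTCA at -200 to -193, found in 1.85% of promoters, and FOS, FOSB and JUNB held TATAAA, found in 11.5%. Neither the AP-1 site TGANTCA (7.71% of promoters) nor the E-box CACGTG (7.26%) was in any of the 8 windows. Both strands were searched, some matches to different motifs can overlap in other promoters, and a match describes letters in this window and no more.

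Levels are given as log2 of the background-corrected, quantile-normalized bead intensity, so that a difference of 1 is a doubling; levels of different probes are not comparable with each other. IER5, at chromosome 1, 181088700 to 181092900, showed the clearest pattern of the genes. Its probe (ILMN_1721833) read 9.35, 9.40 and 9.40 in the 3 empty vector samples, 10.37, 10.02 and 9.91 in WT-BPIFB4, and 10.63, 10.40 and 10.18 in LAV-BPIFB4. All 6 BPIFB4 samples lay above all 3 empty vector samples, and the WT-BPIFB4 and LAV-BPIFB4 samples overlapped. The group means were 9.39 ± 0.03 (SD, n = 3), 10.10 ± 0.24 and 10.40 ± 0.23. In WT-BPIFB4 the highest sample was replicate 1, the array of its group that lay nearest to the controls on the first principal component.

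JUN, the AP-1 subunit that JNK phosphorylates, lies at chromosome 1, 58780791 to 58784047. Its probe (ILMN_1806023) read 11.17, 11.41 and 11.42 in empty vector, 11.64, 11.51 and 11.81 in WT-BPIFB4, and 11.85, 11.79 and 11.93 in LAV-BPIFB4. Again every BPIFB4 sample lay above every empty vector sample, by a smaller step than for IER5, and WT-BPIFB4 replicate 3 overlapped the LAV-BPIFB4 range. The means were 11.33 ± 0.15, 11.65 ± 0.15 and 11.86 ± 0.07 (SD, n = 3 each).

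JUNB and JUND, the other JUN family subunits, are both on chromosome 19, at 12791486 to 12793315 and 18279694 to 18281622. JUND, often described as a brake on growth in resting cells, was at 12.34, 12.47 and 12.21 in empty vector, 12.06, 12.48 and 12.17 in WT-BPIFB4, and 11.93, 12.18 and 12.21 in LAV-BPIFB4 (probe ILMN_1810214). All LAV-BPIFB4 samples lay below the lowest empty vector sample, the highest of them only just, at 12.209 against 12.215. WT-BPIFB4 overlapped both other groups. JUNB (ILMN_2086077) was detected on 2 of 9 arrays, empty vector replicates 1 and 2, with detection p-values of 0.0416 and 0.0455. Its raw signal was 127, 120 and 79.8 in empty vector, 91.8, 120 and 108 in WT-BPIFB4, and 107, 120 and 136 in LAV-BPIFB4, near the background of these arrays, and no fold is given for it.

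The FOS family subunits, which need a JUN partner to bind AP-1 sites strongly, are FOS, FOSB and FOSL1, and the probes of FOS and FOSB were detected on 9 of 9 arrays. FOS, at chromosome 14, 75278828 to 75282230, was at 6.28, 6.99 and 6.19 in empty vector, 7.16, 7.20 and 6.85 in WT-BPIFB4, and 6.88, 6.77 and 7.10 in LAV-BPIFB4 (ILMN_1669523). Empty vector replicates 1 and 3 lay below all 6 BPIFB4 samples, and replicate 2 lay among them. FOSB, at chromosome 19, 45467996 to 45475179, was at 6.54, 6.74 and 6.12, then 5.79, 6.57 and 6.30, then 5.97, 6.25 and 6.82 in the same order of groups (ILMN_1751607), and the groups overlapped. FOSL1, which encodes FRA-1, at chromosome 11, 65892049 to 65900545, was at 5.38, 5.29 and 4.66, then 4.97, 4.80 and 4.82, then 4.63, 5.48 and 5.72 (ILMN_1771841). It was detected on 2 empty vector, 0 WT-BPIFB4 and 2 LAV-BPIFB4 arrays, so in WT-BPIFB4 it was not well above background.

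EGR1, at chromosome 5, 138465479 to 138469303, was at 7.97, 8.64 and 7.30 in empty vector, 8.38, 8.78 and 8.48 in WT-BPIFB4, and 8.03, 8.65 and 8.21 in LAV-BPIFB4 (ILMN_1762899). The control samples alone covered a range wider than that of either BPIFB4 group, with an SD of 0.67 against 0.21 and 0.32. IER2, at chromosome 19, 13150411 to 13154911, was at 6.63, 7.09 and 6.44, then 6.71, 6.85 and 7.07, then 6.36, 6.95 and 6.57 (ILMN_1700584), with all 3 groups overlapping. MYC, on chromosome 8, was read by 2 probes. Probe ILMN_1680618 was at 11.43, 11.99 and 11.54, then 11.61, 11.72 and 11.55, then 11.11, 11.64 and 11.59, with overlap throughout. Probe ILMN_2110908 was at 10.05, 10.04 and 9.78, then 9.63, 9.74 and 9.58, then 9.64, 9.91 and 9.56, and all WT-BPIFB4 samples lay below the controls there.

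**Figure D1:**
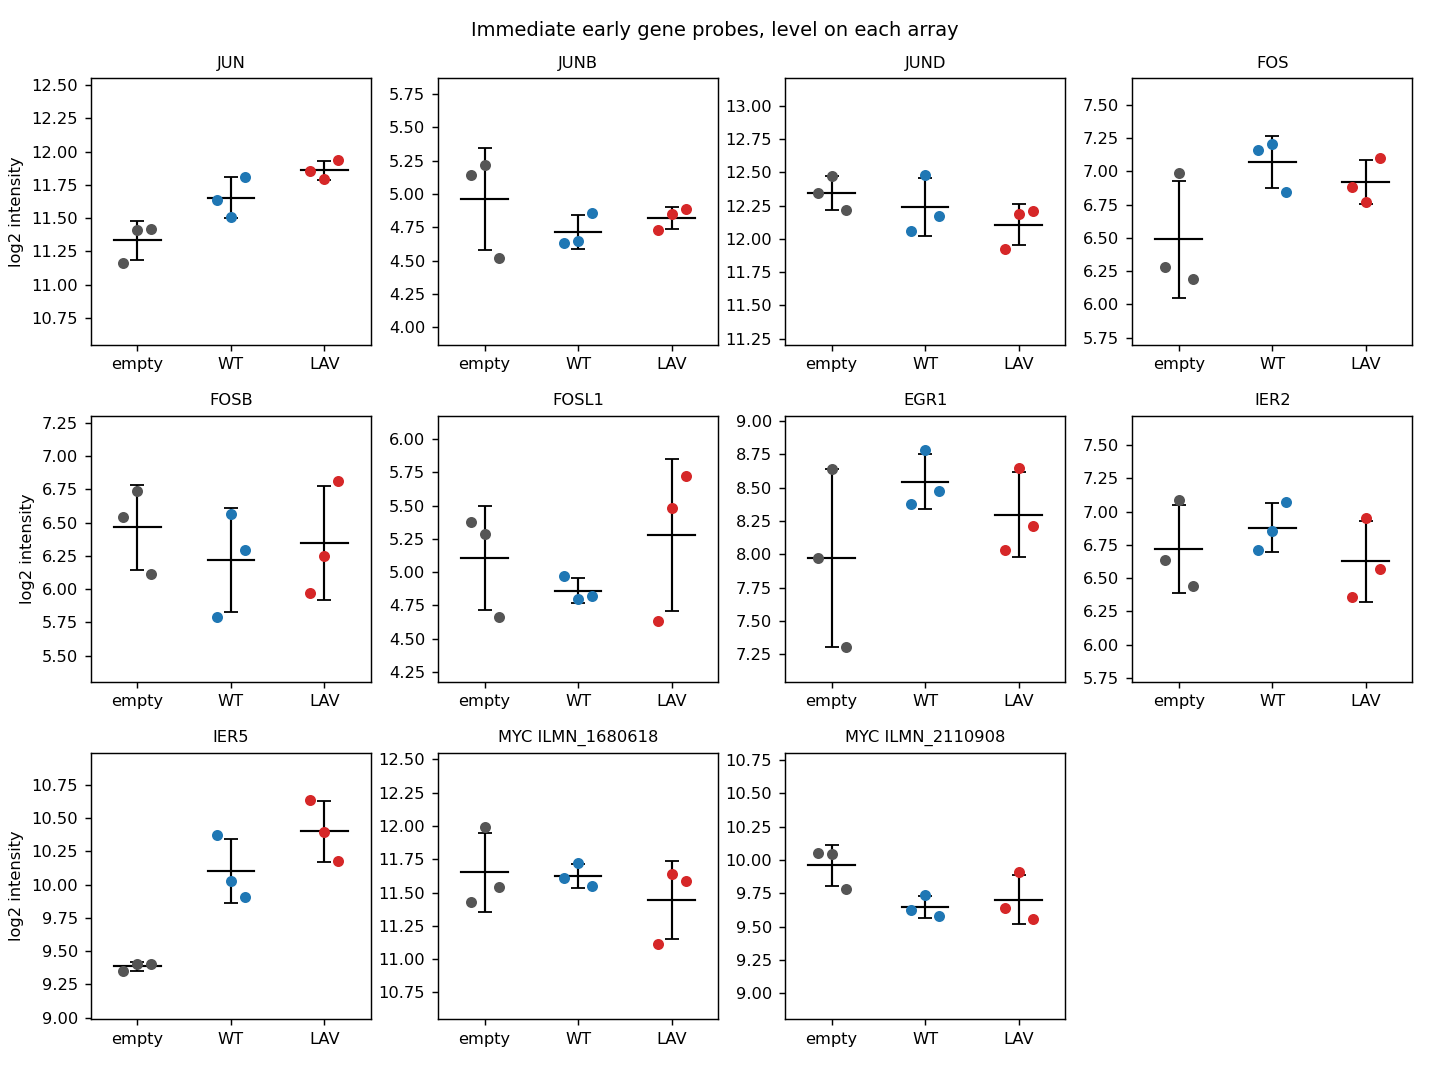
Levels of the 11 probes on each of 9 arrays (vertical axis, log2 normalized bead intensity), 1 panel per probe, with points for the arrays of empty vector, WT-BPIFB4 and LAV-BPIFB4 a bar for each group mean and whiskers of 1 SD. IER5 and JUN are the panels in which all 6 BPIFB4 samples lie above all 3 controls, while EGR1 and FOS are spread widely within empty vector.

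The high and the low control values of several genes came from the same arrays. Empty vector replicate 2 held the highest control level for 8 of the 11 probes (FOS, FOSB, JUNB, JUND, EGR1, IER2, IER5 and MYC ILMN_1680618), and replicate 3 the lowest for 8 (FOS, FOSB, FOSL1, JUNB, JUND, EGR1, IER2 and MYC ILMN_2110908). Empty vector replicate 3 was also the array with the lowest median signal of the 9, at 93.1. Its part in the results was not tested beyond leaving each array out. On the same arrays the IER5 control values had an SD of 0.03, and replicate 2 led for IER5 by 9.404 against 9.402. The order was not limited to the controls. Replicate 2 was the highest WT-BPIFB4 array for 6 of the 11 probes. In LAV-BPIFB4, replicate 2 was highest for 4 and replicate 3 for 6. EGR1 and MYC ILMN_1680618 were highest in replicate 2 of all 3 groups.

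In cells given wild-type BPIFB4, IER5 was the 1 member called higher than in empty vector, and no member was called lower. IER5 rose by 0.72 on the log2 scale (SE 0.14, 95% interval 0.42 to 1.01), a 1.64-fold increase with an adjusted p of 0.0159 by limma over all 20914 probes, and was higher in 3 of 3 samples. That is 1 of 10 member probes, where 1.07% of all probes were called in either direction, 0.607% higher and 0.464% lower. FOS differed by 0.58 (SE 0.23), EGR1 by 0.57 (SE 0.25) and JUN by 0.32 (SE 0.11), with limma adjusted p-values of 0.227, 0.260 and 0.173, so none of these passed. MYC ILMN_2110908 differed by -0.31 (SE 0.14, adjusted p 0.268 by limma), whereas MYC ILMN_1680618 differed by -0.03.

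IER2 differed by 0.16, JUND by -0.10 and FOSB by -0.25, with intervals that all included 0. No fold is given for FOSL1, which was not detected on any WT-BPIFB4 array. At an unadjusted p under 0.05 there were 5 member probes, 4 higher and 1 lower, against 15.6% of all probes. The groups did not overlap for 3 member probes (IER5 and JUN higher, MYC ILMN_2110908 lower), against 17% of all probes (8.31% higher, 8.67% lower). Of the 10 changes, the fitted value of FOSL1 included, 5 were above 0 and 5 below, with a median of 0.06 beside 0.00 over all probes. The IER5 call was lost without empty vector replicate 1 (0.70, limma adjusted p 0.0791) or replicate 3 (0.72, 0.0550), with median scaling (adjusted p 0.606) and without the intensity trend (0.163). EGR1 passed in 1 setting, without empty vector replicate 2, at 0.91 with a limma adjusted p of 0.0390.

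In cells given the longevity-associated variant, IER5 and JUN were both called higher than in empty vector and no member was called lower. IER5 rose by 1.02 on the log2 scale (SE 0.14, 95% interval 0.72 to 1.32), 2.02-fold, with a limma adjusted p of 2.77e-04, and JUN rose by 0.53 (SE 0.11, interval 0.29 to 0.76), 1.44-fold, with a limma adjusted p of 0.00866. Both were higher in 3 of 3 samples. These are 2 of 10 member probes, where 7.72% of all probes were called, 3.64% higher and 4.08% lower. The IER5 change exceeded that of 99.3% of all probes and the JUN change that of 93.2%. FOS differed by 0.43 (SE 0.23, limma adjusted p 0.275) and EGR1 by 0.33 (SE 0.25, limma adjusted p 0.451), and neither passed.

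JUND differed by -0.24 (SE 0.12, limma adjusted p 0.241), or by 0.094 with median scaling. The 2 MYC probes differed by -0.21 and -0.26 (limma adjusted p 0.414 and 0.258), the first of them by 0.086 with median scaling. FOSL1 differed by 0.17, FOSB by -0.12 and IER2 by -0.09, each with an interval that included 0. At an unadjusted p under 0.05 there were 2 member probes, IER5 and JUN, against 23.9% of all probes. The groups did not overlap for 3 (IER5 and JUN higher, JUND lower), against 30.5% of all probes (14.7% higher, 15.9% lower). The median of the 10 changes was 0.04 beside 0.01 over all probes. The other deposited table has different LAV-BPIFB4 values and was also fitted without the background correction. From it, IER5 was higher by 0.73 and JUN by 0.54 (limma adjusted p 0.00300 and 0.0102). IER5 was called in 19 of 19 alternative settings. JUN was called in 16 of 19, and was not called without LAV-BPIFB4 replicate 3 (0.49, limma adjusted p 0.0601), with median scaling (0.82, 0.0530) or without the intensity trend (0.0969).

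**Figure D2:**
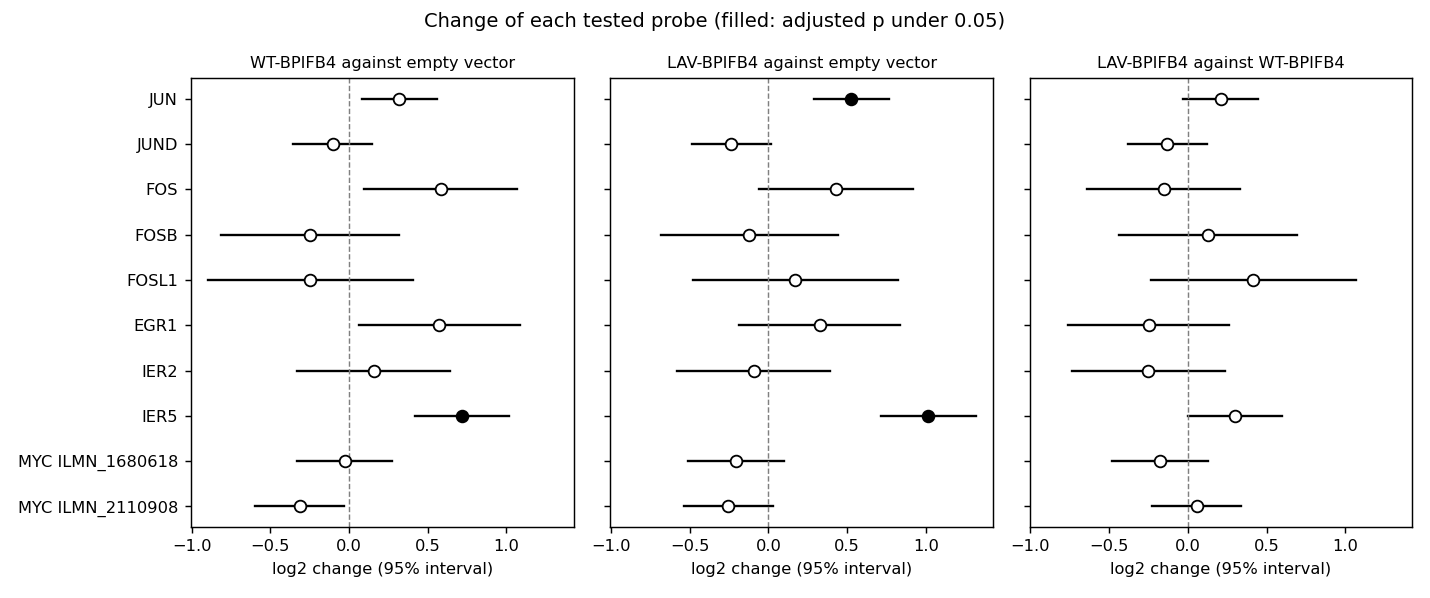
Log2 change of the 10 kept member probes in each of the 3 comparisons (horizontal axis, log2 units), with points for the estimate, lines for the 95% interval and filled points for calls at an adjusted p under 0.05 by limma. The filled points are IER5 in both comparisons with empty vector and JUN in LAV-BPIFB4. FOSL1 was not detected in WT-BPIFB4, so its fitted points against that group are not measured sizes.

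Both comparisons use the same 3 empty vector samples, so a low or high control value enters both. The 2 BPIFB4 forms were therefore also compared directly. IER5 was 0.30 higher in LAV-BPIFB4 than in WT-BPIFB4 (SE 0.14, interval 0.0014 to 0.60), with an unadjusted p of 0.0490 and an adjusted p of 0.972 by limma, and the samples overlapped. JUN was 0.21 higher (SE 0.11, interval -0.03 to 0.44, limma adjusted p 0.972). EGR1 and IER2 were each 0.25 lower by estimate (-0.25 for both) and FOS differed by -0.15, with intervals that included 0. FOSL1 was detected on 2 LAV-BPIFB4 arrays and on no WT-BPIFB4 array, so no fold is given. Its groups overlapped and it was not called (limma adjusted p 0.972). By limma 0 member probes were called, as were 0% of all probes, and at an unadjusted p under 0.05 there was 1, IER5, against 4.67% of all probes. The groups did not overlap for 0 member probes, against 10.1% of all probes (5.24% higher, 4.85% lower). JUN being called in 1 comparison with empty vector and not in the other is thus not shown to be a difference between the 2 forms.

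**Figure D3:**
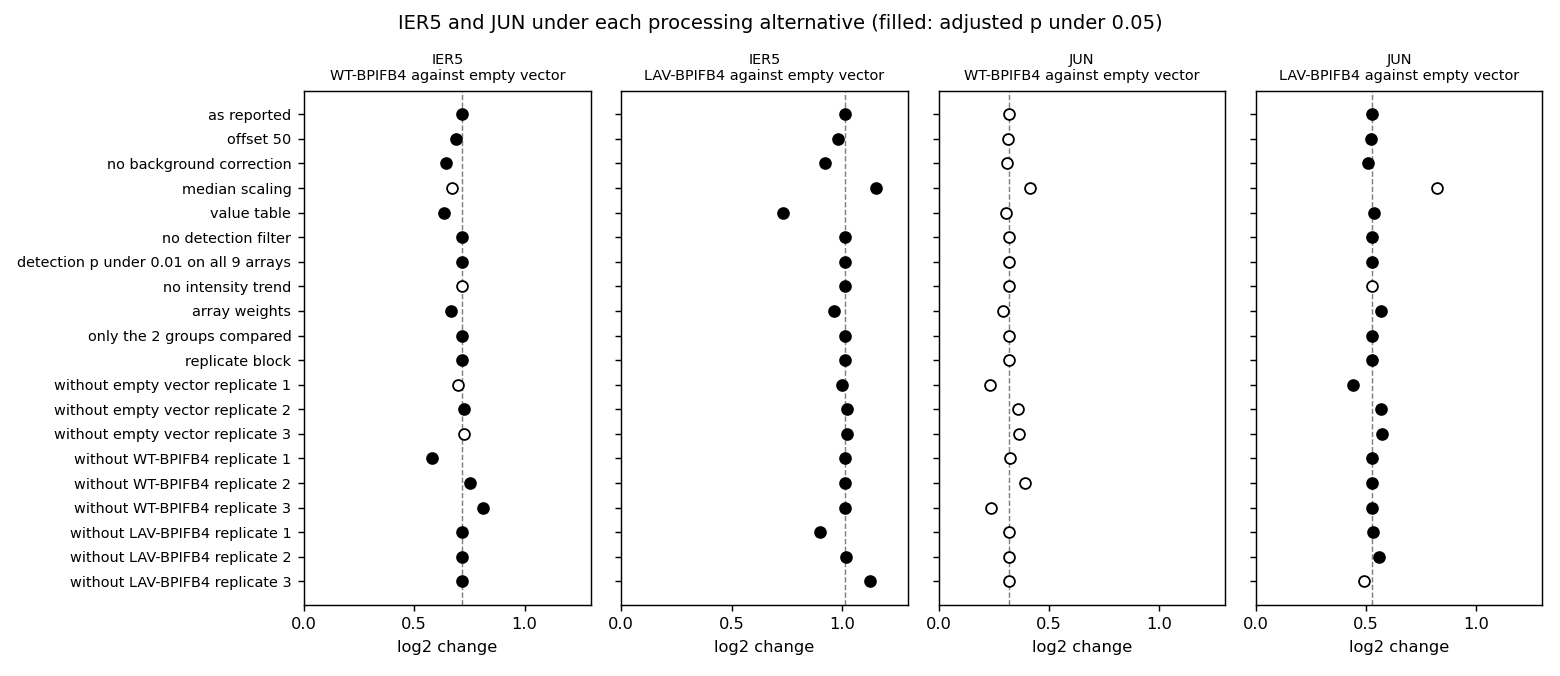
Log2 change (horizontal axis) of IER5 and JUN against empty vector under the main setting and the 19 alternatives, with filled points where the call held at an adjusted p under 0.05. All values lie above 0, IER5 in WT-BPIFB4 between 0.58 and 0.81 and JUN in LAV-BPIFB4 between 0.44 and 0.82.

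Other genes of these pathways were read from 6 lists, in which a gene stands for its brightest kept probe, and 88 of 121 listed genes were tested. In WT-BPIFB4 0 were called higher and 3 lower, and in LAV-BPIFB4 3 higher and 8 lower. Of all probes, 0.607% were called higher and 0.464% lower in WT-BPIFB4, and 3.64% higher and 4.08% lower in LAV-BPIFB4. These shares, here and below, cover all 20914 kept probes, 5136 of them with no gene symbol or several. They are not limited to the brightest probe of a gene, so they are only a rough measure beside the lists. Among 28 other immediate early genes, ATF3, a stress-induced bZIP factor that also pairs with JUN, was the 1 gene called in WT-BPIFB4. ATF3 fell from 10.71 ± 0.23 (SD, n = 3) to 9.65 ± 0.20 in WT-BPIFB4 and 9.64 ± 0.21 in LAV-BPIFB4, by 1.06 on the log2 scale in each (SE 0.15, limma adjusted p 4.46e-04 and 2.44e-04). It was lower in 3 of 3 samples of both forms, the opposite direction to IER5 and JUN.

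In LAV-BPIFB4 the same list gave ARC and MCL1 as higher, so 2 of 28 rose and 1 fell. ARC, a synaptic immediate early gene, was detected on 0 empty vector, 2 WT-BPIFB4 and 3 LAV-BPIFB4 arrays. It thus passed the detection filter only with the arrays of the group in which it was high. Its call and its place among the 2 that rose are not independent of that filter. In this normalization ARC was at least 1.70-fold higher in LAV-BPIFB4 than in empty vector (limma adjusted p 0.0362). The size of that step rests on the background correction: the log2 change was 0.33 without it and 0.19 from the value table, and neither was called. MCL1, a short-lived anti-apoptotic protein, rose 1.52-fold (0.61, SE 0.15, limma adjusted p 0.0184) by its brightest probe, while another MCL1 probe differed by -0.31 and was not called. The list's median change was 0.03 in WT-BPIFB4 and 0.02 in LAV-BPIFB4. Of the 10 tested AP-1 partners and related bZIP factors, 0 were called in WT-BPIFB4 and 2 in LAV-BPIFB4. MAFG, a small MAF protein, rose 1.62-fold (0.69, limma adjusted p 0.0456), and CREB5 fell by 0.72 (limma adjusted p 0.00321); a further probe of each, at 0.36 and 0.19, was not called.

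Of 19 tested genes that signal to immediate early genes, 0 were called in WT-BPIFB4 and 2 fell in LAV-BPIFB4. MRTFB, a coactivator of SRF, fell by 1.07 (SE 0.30, limma adjusted p 0.0351) and was detected on 2 of 3 LAV-BPIFB4 arrays. Its change was -0.48 without background correction, where it was still called, and -0.31 from the value table, where it was not. In WT-BPIFB4 it was -1.05 (SE 0.30, limma adjusted p 0.0986), with no overlap with the controls. MAPK8, which encodes JNK1, fell by 0.79 (SE 0.19, limma adjusted p 0.0174) by its brightest probe and differed by -0.22, not called, by another. The medians of this list were -0.02 and -0.00.

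The calls among MYC's partners and targets were all lower, where 0.464% of all probes were called lower in WT-BPIFB4 and 4.08% in LAV-BPIFB4. MYCBP2, a ubiquitin ligase first found as a MYC-binding protein, was the 1 gene called of 13 in the MYC network, and fell by 0.54 in WT-BPIFB4 (limma adjusted p 0.0416) and 0.61 in LAV-BPIFB4 (limma adjusted p 0.00722). Of 10 MYC targets, 0 were called in WT-BPIFB4 and 2 fell in LAV-BPIFB4, the nucleolar protein gene NCL by 0.36 and the cyclin gene CCND2 by 0.65 (limma adjusted p 0.0349 and 0.00355). Further probes of NCL and CCND2 differed by -0.31 and -0.36 and were not called. Of 8 tested AP-1 targets, VIM, the intermediate filament vimentin, was the 1 call. It fell by 0.53 in WT-BPIFB4 and 0.62 in LAV-BPIFB4 (limma adjusted p 0.00828 and 8.71e-04), and its other probe was called lower in both too, at -0.47 and -0.67. VIM is also 1 of the HEK293-like markers.

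The calls on the lists depended on single arrays. Without empty vector replicates 1, 2 and 3 the number of genes called in LAV-BPIFB4 was 6, 12 and 7 in place of 11, and without LAV-BPIFB4 replicates 1, 2 and 3 it was 6, 7 and 5. In WT-BPIFB4 it was 3, against 8 without WT-BPIFB4 replicate 1, 1 without replicate 2 and 1 without replicate 3. ATF3 in both forms and CREB5 in LAV-BPIFB4 were called in 18 of 19 alternative settings. In LAV-BPIFB4 MYCBP2 and VIM were called in 17 of 19, CCND2 in 16, and MCL1 and MAPK8 in 13, and in WT-BPIFB4 VIM was called in 15. Fewer settings gave a call for MYCBP2 in WT-BPIFB4, 6 of 19, and in LAV-BPIFB4 for ARC, 8 of 18, MAFG, 9 of 19, MRTFB, 10 of 18, and NCL, 10 of 19. In LAV-BPIFB4 with median scaling 0 of the list genes were called, and NCL was at 0.0011, CCND2 at -0.35 and VIM at -0.28. From the value table MAFG was at 0.42, CREB5 at -0.42, MAPK8 at -0.37 and CCND2 at -0.41, and of these CREB5 was called. Without background correction MAFG was at 0.44 and MAPK8 at -0.50.

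**Figure D4:**
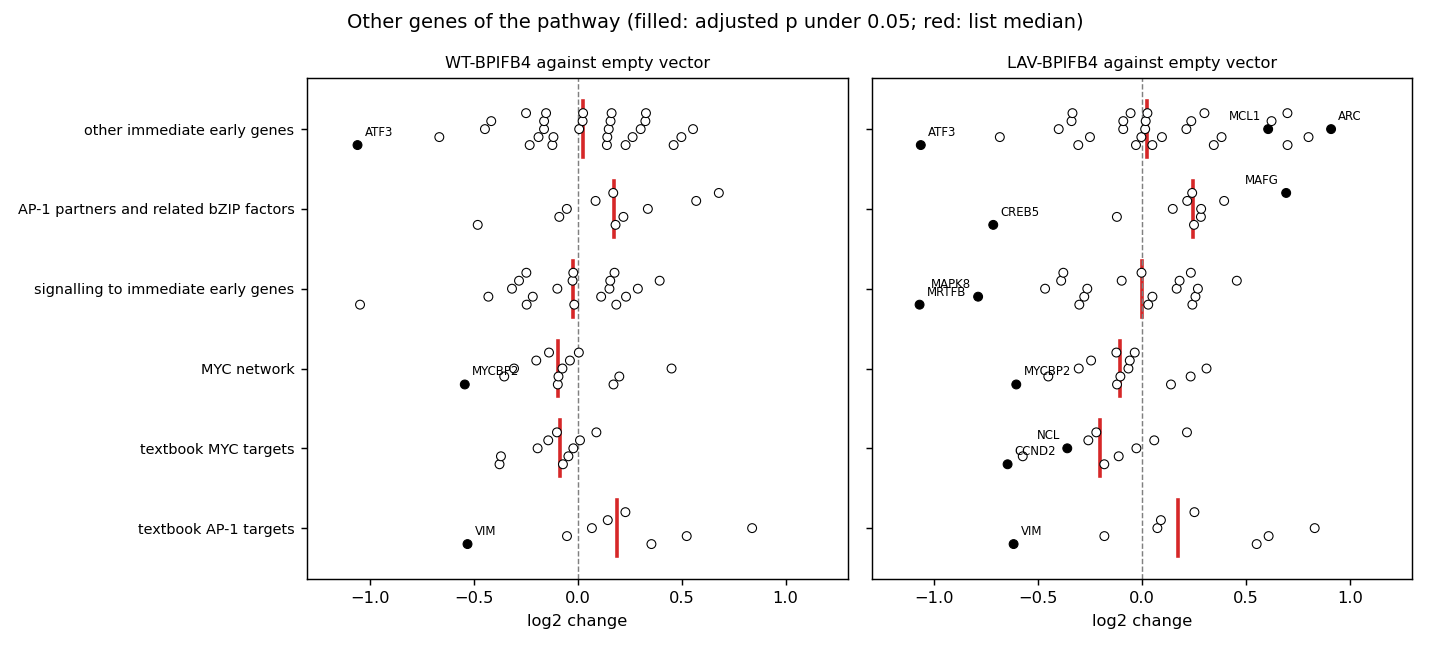
Log2 change against empty vector (horizontal axis) of each tested gene of the 6 pathway lists, 1 panel per BPIFB4 form, with filled points for genes called at an adjusted p under 0.05 by limma and a bar for the list's median. The medians lie between -0.20 and 0.25, with ATF3 at -1.06 in both panels.

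The genes whose levels followed IER5 most closely over the 9 arrays were SLCO4A1 (Pearson r 0.974, Spearman rho 1), SYCE2 (0.970 and 0.883) and RPL32P3 (0.961 and 0.933). SLCO4A1, an organic anion transporter, was at 6.34 ± 0.05 in empty vector, 6.58 ± 0.12 in WT-BPIFB4 and 6.80 ± 0.09 in LAV-BPIFB4 (SD, n = 3 each). SYCE2 was not detected on any empty vector array and passed the detection filter through the BPIFB4 groups. For JUN they were NAIF1 (0.966 and 0.967), HOXD11 (0.965 and 0.967) and TCEAL9 (0.964 and 0.983). TCEAL9 was at 11.23 ± 0.11, 11.66 ± 0.16 and 11.82 ± 0.13, and HOXD11, a homeobox gene, at 9.06 ± 0.17, 9.29 ± 0.18 and 9.52 ± 0.01. SLCO4A1, SYCE2 and RPL32P3 were not called in any comparison, the lowest limma adjusted p being 0.0842 for RPL32P3 in LAV-BPIFB4 against empty vector. Among NAIF1, HOXD11 and TCEAL9 the only call was TCEAL9 in LAV-BPIFB4 against empty vector (limma adjusted p 0.00471). The coefficients describe 9 arrays of 3 groups that share 1 chip and 1 normalization, and the difference between groups enters them. They are also the highest from a search over the 11830 genes with a kept probe, which by itself favours high values.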

How the data were processed

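Total RNA of 9 HEK293T samples was hybridised to Illumina bead arrays. The deposited table gives, per the file headers, for every probe and sample a bead intensity with its detection p-value, without normalization; the submitters' processing notes name BeadStudio, and what else was done to the intensities is not given in the sources used here. The arrays' number limits the precision. A second deposited table holds the authors' processed intensity values, used as an alternative. To these values 16 was added before log2 and quantile normalization, and no background correction was applied. With limma 3.58.1 in R 4.3.3, neqc was run, which corrects the background by normexp (offset 16), quantile-normalizes and takes log2. The deposited values themselves are not log2. Probes with a detection p under 0.05 on at least 3 of 9 arrays were kept, 3 group means were fitted with lmFit, and eBayes used an intensity trend. P-values were adjusted by Benjamini-Hochberg over the 20914 kept probes, and a probe was called at an adjusted p under 0.05.

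Symbols came from the platform annotation, updated through the gene identifier to RefSeq GRCh38.p14; 30105 probes had 1 symbol, 8 several and 17197 none. The table names a gene per probe and no exon. The members and the pathway lists were chosen with earlier results of these data known. Every member is named, with the called genes of each list (at most 4 per list and comparison, by smallest p) and the 3 genes most correlated with IER5 and with JUN. The 19 alternatives per result changed the offset, background correction, scaling, value table, detection filter, trend, array weights, groups in the fit, replicate block or the arrays left out.

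Same-numbered arrays of different groups were checked for shared deviations from their group means. Their correlations were 0.0011 to 0.216 over 9 pairs, 4 of them above 0.1, and those of the 18 differently numbered pairs were -0.150 to 0.066. Since not every same-numbered pair was above 0.1 and no label ties a number to a shared batch, the fit has no replicate block, and the blocked fit is an alternative. The cutoff of 0.1 was a choice, and the check does not show the numbers to be unrelated. Of the 9 arrays, 8 correlated best with an array of their own number. The blocked fit gave 829 calls in WT-BPIFB4 and 2740 in LAV-BPIFB4, against 224 and 1615.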

Additional observations from a re-analysis of the deposited data

Results flagged for a closer look

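In the deposited value table, the empty vector and WT-BPIFB4 columns each follow their own non-normalized array (r = 1), on another scale. No LAV-BPIFB4 column does so with any of the 9 arrays. These LAV-BPIFB4 values are in no comparison of the report except as an alternative setting, and 2 members were above the controls in them. JUN ranged from 3941 to 4716 intensity units in the 3 LAV-BPIFB4 columns, against 2197 to 2928 in empty vector. IER5 ranged from 1217 to 1650, against 753 to 820 in empty vector. The correlation of each such column with the array of its own label was 0.985 to 0.989. The column of replicate 1 correlated best with WT-BPIFB4 replicate 3 (0.994), and those of replicates 2 and 3 with LAV-BPIFB4 replicate 1 (0.992 and 0.993). Which of the 2 tables holds the LAV-BPIFB4 samples is not settled, and this touches every LAV-BPIFB4 value of the report.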

How the results depend on the processing

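By limma, 1 member probe was called in WT-BPIFB4 against empty vector, 2 in LAV-BPIFB4 against empty vector and 0 between the 2 forms; the last count was 0 in every one of 19 alternatives. In WT-BPIFB4 the count was 0 with median scaling and 0 without the intensity trend, and 0 to 2 when 1 array was left out: 0 without empty vector replicate 1 or 3, 2 (IER5 and EGR1) without replicate 2. In LAV-BPIFB4 it was 1 (IER5) with median scaling and 1 without the trend, and 1 to 2 with 1 array left out. The cause was not tested. IER5 and JUN stayed above 0 against empty vector in all settings run.

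The whole table gave 224 calls in WT-BPIFB4 (56.7% higher), 52 with median scaling (73.1% higher), 105 without a detection filter, 31 without the trend, 1120 with array weights, 87 with only the 2 groups compared, and 67 to 1587 with 1 array left out, the highest without WT-BPIFB4 replicate 1. It gave 1615 calls in LAV-BPIFB4 (47.2% higher), 243 with median scaling (84.4% higher), 913 from the value table, 923 without the filter, 210 without the trend, 2962 with array weights and 495 to 2544 with 1 array left out. Between the forms it gave 0, 4 with median scaling, 1 with array weights and 0 with any array left out. List genes called ranged from 0 to 8 in WT-BPIFB4 and 0 to 16 in LAV-BPIFB4. Median scaling moved the median change of all probes from 0.01 to 0.08 in LAV-BPIFB4 and from -0.00 to 0.13 between the forms.

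With the replicate block the member counts were 1, 2 and 0, and the whole-table counts 829, 2740 and 17; 8 of 9 arrays correlated best with their own number, a hint from the data and not the design.

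Changes of sign were of uncalled values apart from NCL, which was at 0.0011 with median scaling in LAV-BPIFB4. Against empty vector in LAV-BPIFB4, FOSB was 0.016 from the value table, 0.019 with array weights and -0.356 to 0.0655 with 1 array left out; FOSL1 was -0.0010 and -0.0529 to 0.493; JUND was 0.094 with median scaling; EGR1 was -0.0078 to 0.66 with 1 array left out; IER2 was 0.21 from the value table and -0.258 to 0.0881; MYC ILMN_1680618 was 0.086 with median scaling. In WT-BPIFB4, JUND was 0.0011 with median scaling and 0.017 with array weights, and MYC ILMN_1680618 was 0.077, 0.067 and -0.14 to 0.14. Between the forms, JUND was 0.093 and MYC ILMN_1680618 0.0093 with median scaling, EGR1 0.11 and IER2 0.13 from the value table, FOSB -0.11 to 0.31 with 1 array left out, and MYC ILMN_2110908 -0.0097 with array weights and -0.0505 to 0.127.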
